A study of Mus musculus with 8 samples.

Results

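The nuclear genes for the subunits of the mitochondrial respiratory chain and the ATP synthase were followed through 4 groups of mouse astrocyte cultures. They were taken by symbol from the TPM table of the series, as every gene whose name starts with Nduf, with Cox and a digit from 4 to 8, with Atp5 or with Uqcr, together with Sdha, Sdhb, Sdhc and Sdhd. TPM is the transcript abundance per length, scaled to the same total in every library. Among 23401 genes of that table, a total of 92 matched, and 89 reached at least 1 TPM in at least 2 of the 8 libraries. Cox6a2, Cox7b2 and Cox8c did not. The 89 comprised 36 subunits of complex I (7 core and 29 accessory), 4 of complex II, 8 of complex III, 16 of complex IV including isoforms and the Ndufa4 pair, 15 of complex V, and 10 genes that share the prefixes but act in assembly or coupling.

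The cells were labelled as mouse astrocytes and were kept either in a conventional culture, CV, or in a culture called MGS, letters that the labels do not explain. MGS libraries carry the word soft in their descriptions, and CV libraries the word hard. Day 5 and day 32 were sampled in both cultures with 2 libraries per group, and no other treatment, strain, age or genotype is named. Nothing in the labels says whether the libraries of a group came from separate cultures, so every p-value rests on the spread of these libraries alone, and that spread may be technical.

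Complex I passes electrons from NADH, and complex II those from succinate, to ubiquinone. Complex III hands them to cytochrome c, complex IV to oxygen, and complex V makes ATP from the proton gradient that complexes I, III and IV build. Each complex except complex II also holds subunits encoded in mitochondrial DNA, which were not analysed here because the files list 0 rows on that chromosome. Astrocytes are known for strong glycolysis beside a working respiratory chain.

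The astrocyte label was checked against 8 markers, among them Gfap, the glial filament protein. Their summed level was 16822 to 17005 TPM in MGS at day 5, 3413 to 3605 in CV at day 5, 13675 to 13709 in MGS at day 32 and 1426 to 1826 in CV at day 32, and all 8 were present in every library. Gfap held most of that sum in MGS. Of the 8, 5 were called higher and 1 lower in MGS at day 5, and 7 and 1 at day 32. Aldh1l1 was at 256.9 and 250.8 TPM in MGS and 428.9 and 390.6 in CV at day 5, the opposite order to Gfap, and Aqp4 overlapped between the cultures at that day. Markers of other cells moved as well. The sum of 9 microglia and macrophage markers was 1021 to 1048 TPM in MGS at day 5, 49.2 to 49.5 in CV at day 5, 1287 to 1311 in MGS at day 32 and 16111 to 17176 in CV at day 32. In bulk RNA, fewer cells of a type and less RNA per cell cannot be told apart. The aligned sequence per library was 2.15 to 4.69 gigabases, with CV the shallower culture at both days. The replicates differed most in CV at day 32, where the SD of their log2 difference over genes was 0.465, against 0.191 to 0.321 in the other groups.

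Most members were abundant. Their mean TPM over the 8 libraries had a median of 277.3, from 2.028 for the lowest to 1762 for Cox4i1, and 70 of the 89 were at or above 100 TPM in all 8 libraries. The transcripts were short, with a median length of 934 bases against 3065 for all genes tested, and 84 of the 89 lay under that median. No member was split over several rows. For 20 of the 89 the reference genome's transcripts hold a copy of at least 95% identity over at least 80% of the coding part, among them Cox6c, Cox7c, Uqcrb and Atp5l, and their levels are uncertain where reads could be shared. Of the members, 10 overlap a gene on the other strand, and use of strand in counting is not given in the sources used here.

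**Figure D1:**
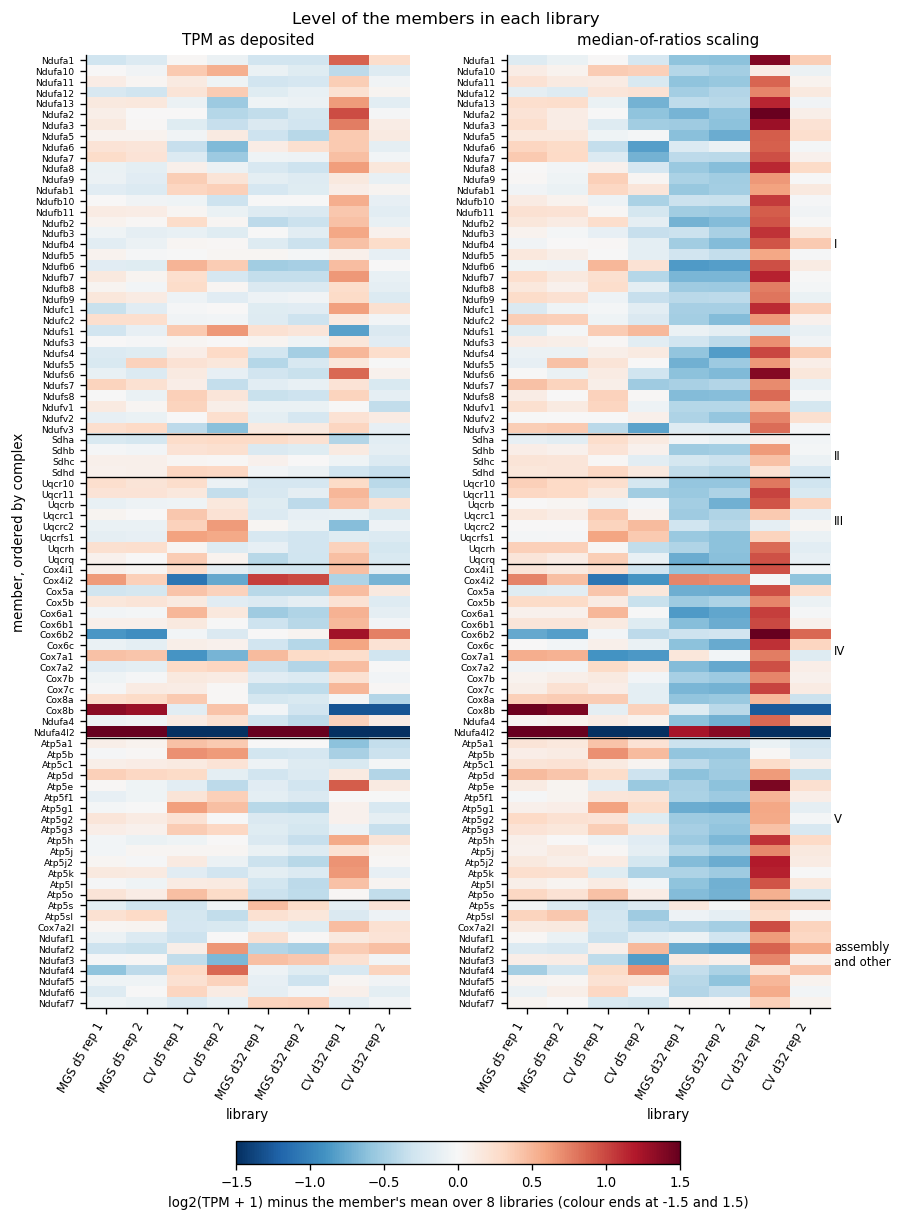
Level of 88 of the 89 members in each of the 8 libraries as log2(TPM + 1) minus the member's mean over the 8 libraries, as deposited (left) and after median-of-ratios scaling (right), with members in rows by complex and libraries in columns. The left panel is mixed, and the right panel is mostly blue in both MGS libraries of day 32 and mostly red in CV day 32 replicate 1.

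The share of all TPM held by the 89 members was 3.17% and 3.13% in MGS at day 5, 3.52% and 3.19% in CV at day 5, 2.64% and 2.59% in MGS at day 32, and 3.84% and 2.86% in CV at day 32. Both MGS libraries of day 32 were therefore below all 6 other libraries. By complex, the summed TPM of complex I was 8825 and 8584 in MGS at day 5, 8996 and 8126 in CV at day 5, 7609 and 7535 in MGS at day 32, and 11730 and 8372 in CV at day 32. The cultures overlapped at day 5 and not at day 32. Complex II went another way, with 1044 and 1037 TPM in MGS at day 5, 1215 and 1222 in CV at day 5, 1089 and 1062 in MGS at day 32, and 954 and 918 in CV at day 32. Its order between the cultures was thus lower in MGS at day 5 and higher in MGS at day 32. The sum of complex III was 3842 to 3893 in MGS and 3651 to 4225 in CV at day 5, and 3020 to 3061 in MGS and 3050 to 4320 in CV at day 32, so both days overlapped. For complex IV the sums were 8125 to 8178 and 8249 to 9500 at day 5, and 6397 to 6499 and 7717 to 10690 at day 32. For complex V they were 9154 to 9301 and 10150 to 10840 at day 5, and 7417 to 7685 and 8006 to 10050 at day 32. MGS was below CV without overlap in complexes IV and V at both days, as deposited.

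Median-of-ratios scaling divides each library by the median ratio of its genes to their geometric means, and so centres the typical gene. The day 5 factors were 0.934 and 0.9385 in MGS and 1.016 and 1.135 in CV, and the day 32 factors were 1.262 and 1.268 in MGS and 0.709 and 0.9358 in CV. After it, the complex I sum was 9448 and 9147 in MGS at day 5, 8856 and 7162 in CV at day 5, 6030 and 5942 in MGS at day 32, and 16550 and 8947 in CV at day 32. MGS now lay above CV at day 5 and further below it at day 32. The day 5 sums of complex IV, 8699 and 8714 in MGS and 9352 and 7270 in CV, overlapped after scaling, and so did those of complex V, 9957 and 9754 in MGS and 10670 and 8946 in CV. Complex II at day 5 overlapped as well, with 1118 and 1105 in MGS and 1196 and 1077 in CV. Complex II came to 863 and 838 in MGS and 1346 and 981 in CV at day 32, so that its day 32 order turned too. Complex III overlapped at day 5, with 4168 and 4094 in MGS and 4160 and 3218 in CV. At day 32 its sums, 2426 and 2382 in MGS and 6093 and 3259 in CV, no longer overlapped. The day 32 sums of complex IV were 5151 and 5045 in MGS and 15070 and 8247 in CV. Those of complex V were 6091 and 5849 in MGS and 14180 and 8555 in CV. Ratios between complexes within a library do not depend on median-of-ratios scaling. They are not corrected for transcript length, and its part in them was not tested. Complex II transcripts have 1142 to 3171 bases, against a median of 934 for all members. The ratio of complex I to complex V was 0.949 and 0.938 in MGS at day 5, 0.830 and 0.801 in CV at day 5, 0.990 and 1.016 in MGS at day 32, and 1.168 and 1.046 in CV at day 32. It was higher in MGS at day 5 and lower in MGS at day 32, without overlap. The ratio of complex II to complex I was 0.118 and 0.121, 0.135 and 0.150, 0.143 and 0.141, and 0.0813 and 0.110 in the same order of groups, lower in MGS at day 5 and higher in MGS at day 32.

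**Figure D2:**
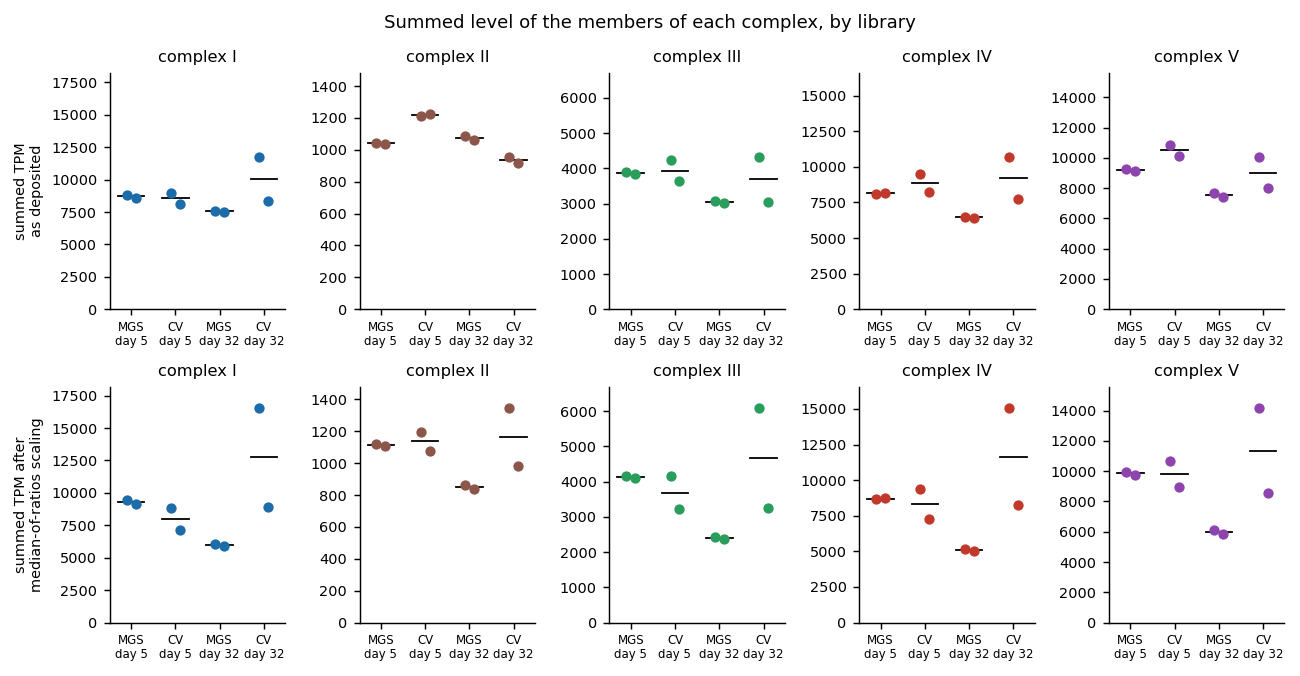
Summed TPM of the members of complexes I to V in each library (points, 2 per group) with the group mean (line), as deposited (top) and after median-of-ratios scaling (bottom). The complex I sum is 11730 and 8372 in CV at day 32 as deposited and 16550 and 8947 after scaling, against 7609 and 7535 and then 6030 and 5942 in MGS.

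At day 5 the cultures differed in single members more than in whole complexes. The largest rises in MGS were in isoform genes of complex IV. Ndufs1, Sdha, Uqcrfs1 and Atp5b, core subunits of complexes I, II, III and V, stood lower. Complex IV itself went both ways, since its isoform gene Cox6b2 and its widely expressed Cox5a and Cox7a2 were also called lower as deposited. Cox5a was at 316.3 and 324.7 TPM in MGS and 524.6 and 492.8 in CV. As deposited, limma called 10 of the 89 higher and 20 lower in MGS at an adjusted p under 0.05, where 22.5% of the 14904 genes tested were called higher and 26.4% lower. The share called lower was near that background and the share called higher below it. The median log2 fold change of the members was -0.11, against -0.14 over all genes. After median-of-ratios scaling 8 were called higher and 7 lower, with a background of 28.6% and 24%, and a median of 0.09 against 0.03. Leaving out 1 library gave 5 to 17 higher and 5 to 34 lower; the count of 20 became 7 or 5 without an MGS day 5 library, 13 or 11 without CV day 5 replicate 1 or 2, and 34 without either CV day 32 library. The count of 10 became 5 without either MGS day 5 library or CV day 5 replicate 2, and 17 without either CV day 32 library. Markers of several other cell types were mostly higher in MGS at day 5, but not those of neurons and muscle. Called higher were 8 of 9 microglia and macrophage, 5 of 5 oligodendrocyte, 5 of 5 meningeal fibroblast and 5 of 6 choroid plexus markers. So were 4 of 5 endothelial and 4 of 4 ependymal markers, beside 5 of 8 astrocyte markers. Neuron markers were split, with 3 of 6 called higher and 2 lower. Also called lower were 2 of 2 muscle markers and 1 choroid plexus marker. The part of all these markers in the members' values was not tested. Of the markers called higher here, 3 endothelial and 2 oligodendrocyte markers reached 1 TPM in MGS only. So did 1 each of the meningeal, choroid plexus, ependymal and neuron markers. They passed the filter on low values through the culture where they were high.

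In complex I, 4 of the 36 were called higher and 7 lower at day 5 as deposited, and 2 and 1 after scaling. These shares were below the backgrounds over all genes, 22.5% and 26.4%, then 28.6% and 24%. Ndufs1, the largest iron-sulfur subunit, was at 69.5 and 78.0 TPM in MGS and 112.3 and 134.7 in CV. Both MGS libraries were below both CV libraries, and the log2 fold change was -0.73 (SE 0.20, limma adjusted p = 0.018). Ndufv3, an accessory subunit beside the NADH-binding part, was at 252.1 and 258.9 in MGS and 160.8 and 135.9 in CV. It was higher in MGS without overlap, by 0.79 (SE 0.16, limma adjusted p = 0.0052). Ndufa6, an accessory subunit, rose by 0.70 (SE 0.18) from 188.1 and 151.0 TPM in CV to 275.9 and 271.9 in MGS. The core subunits Ndufs3, Ndufs7, Ndufs8, Ndufv1 and Ndufv2 were not called at day 5, with log2 fold changes from -0.32 to 0.41.

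Among complexes II and III, 0 members were called higher at day 5, also at an unadjusted p under 0.05 in limma. Of all genes, 22.5% were called higher. Sdha, the flavoprotein that oxidises succinate, was at 225.9 and 221.6 TPM in MGS and 321.0 and 327.7 in CV, a fall of 0.53 on the log2 scale (limma adjusted p = 0.0066). Sdhd, a membrane anchor, fell by 0.25, and Sdhb and Sdhc were not called, with -0.26 and 0.05. Uqcrfs1, the Rieske iron-sulfur protein of complex III, was at 203.0 and 205.1 in MGS and 340.2 and 331.1 in CV. The groups lay far apart for the spread within them, with a log2 fold change of -0.71 (SE 0.08, limma adjusted p = 4.0e-04). Uqcrc2, a core protein of complex III, fell by 0.59, and the other 6 members of complex III were not called.

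In complex V, 4 of 15 were called lower at day 5 and 0 higher, the latter also at an unadjusted p under 0.05 in limma. Of all genes 26.4% were called lower and 22.5% higher, so the share called lower was near the background. Atp5b, the catalytic beta subunit of the F1 head, was at 1337 and 1370 TPM in MGS and 2183 and 2111 in CV, and its log2 fold change was -0.67 (SE 0.10, limma adjusted p = 0.001). Atp5a1, the alpha subunit of F1, fell by 0.35. Atp5g1, one of the genes for the same mature c subunit of the rotor, fell by 0.55, while Atp5g2 and Atp5g3 were not called, with 0.05 and -0.27. Its share of the TPM of the 3 c subunit genes was 11.97% and 12.46% in MGS and 15.5% and 15.1% in CV. Of the assembly genes, Ndufaf4 fell by 1.07 and Ndufaf2 by 0.70, both complex I assembly factors. Ndufaf4 was at 6.61 and 7.82 TPM in MGS and 13.2 and 20.0 in CV, so it was a low gene. Atp5sl and Ndufaf3, which also serve complex I assembly, rose by 0.58 and 0.52.

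Under all 4 scalings tried (as deposited, median-of-ratios, quantile, and a smooth over transcript length and GC content that is removed from each library), 7 members were called higher at day 5 and 7 lower, against 18.2% and 21.4% of all genes. The 7 higher were Ndufa4l2, Cox4i2, Cox7a1, Cox8b, Ndufa6, Ndufv3 and Atp5sl, and the 7 lower were Ndufs1, Sdha, Uqcrfs1, Uqcrc2, Atp5b, Ndufaf2 and Ndufaf4. With the length and GC correction alone, 7 were higher and 44 lower, with a background of 26.4% and 40%.

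**Figure D3:**
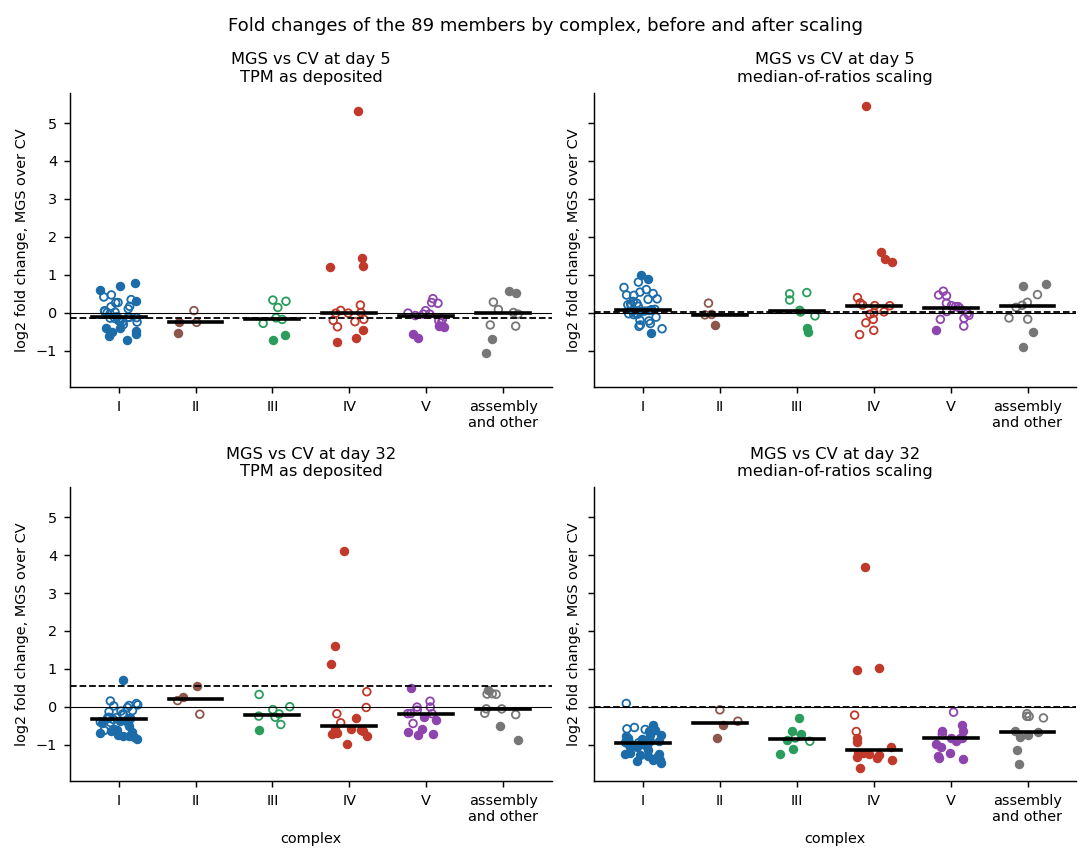
Log2 fold change of MGS over CV for each member by complex, at day 5 (top) and day 32 (bottom), as deposited (left) and after median-of-ratios scaling (right); filled points have an adjusted p under 0.05, thick lines are medians of the complex and the dashed line is the median of all genes tested. At day 32 the median of the members is -0.28 against 0.56 for all genes as deposited, and -0.91 against -0.003 after scaling.

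At day 32 the members were lower in MGS in every complex but complex II as deposited, and in all 5 after scaling, as medians. As deposited, 8 of 89 were called higher and 34 lower, against 52.8% and 14.8% of all genes tested. Members called lower were thus more frequent, and members called higher far less frequent, than among all genes. The median was -0.28 where that of all genes was 0.56. The median of all genes varied with transcript length. It was 0.02 up to 600 bases, -0.30 from there to 1000, -0.0003 to 2000 and 0.74 over 2000. In the same classes the members had medians of -0.44, -0.43, -0.09 and 0.16. With the length and GC correction the members' median minus that of all genes was -0.185. After median-of-ratios scaling 3 were called higher and 69 lower, with a background of 35.1% and 34.9%, and a median of -0.91 against -0.003. With the length and GC correction the counts were 7 and 46, against 30.5% and 39.7%. Under all 4 scalings 3 were called higher and 24 lower, against 22.1% and 14.3%. As deposited, the 34 became 18 without MGS day 32 replicate 1, 15 without replicate 2 and 54 without CV day 32 replicate 2. The 8 became 5 without either MGS day 32 library and 13 without CV day 32 replicate 2. After median-of-ratios scaling, 57 and 81 were called lower without CV day 32 replicate 1 and replicate 2.

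The replicates of CV at day 32 differed in these genes. Replicate 1 was above replicate 2 in 75 of the 89, with a median log2 difference of 0.34, while the median over all genes was -0.32. In the other groups the median difference of the members was 0.02 to 0.09. In CV at day 5 it was 0.09 against -0.12 over all genes, the same direction as at day 32. Beside the day 32 comparison stood the microglia and macrophage markers, 8 of 9 of which were lower in MGS than in CV, where their sum reached 17176 TPM, and the astrocyte markers, 7 of 8 of which were higher in MGS. Lyz2 alone held 9452 and 11181 TPM in CV at day 32 and 697 and 677 in MGS. Markers of other cells differed too, counted as deposited at an unadjusted p under 0.05 in limma. Higher in MGS were 5 of 5 oligodendrocyte, 5 of 5 meningeal fibroblast, 6 of 6 choroid plexus, 4 of 4 ependymal and 7 of 7 pericyte and mural markers. Of 5 endothelial markers 2 were higher, of 6 neuron markers 3 were higher and 1 lower, and 2 of 2 muscle markers were lower. Some of these reached 1 TPM in MGS only. The part of these markers in the fall of the members was not tested.

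In complex I, 16 of 36 were called lower in MGS at day 32 as deposited and 31 after scaling. The shares over all genes were 14.8% and 34.9%. Ndufa1, an accessory subunit of the membrane arm, was at 222.3 and 222.6 TPM in MGS and 502.1 and 325.7 in CV. The groups did not overlap and the log2 fold change was -0.86 (SE 0.19, limma adjusted p = 0.005). After scaling it was -1.49. Ndufa2, a subunit of the matrix arm, was at 333.2 and 360.0 in MGS and 848.0 and 426.9 in CV, a fall of 0.80 (SE 0.30), and Ndufs6 at 216.0 and 209.1 in MGS and 482.1 and 275.9 in CV, a fall of 0.78 (SE 0.24). In both, CV replicate 1 was the high library. Ndufb4, an accessory subunit of the membrane arm, had closer replicates, with 145.7 and 133.5 in MGS, 226.4 and 203.1 in CV and a log2 fold change of -0.62 (SE 0.10, limma adjusted p = 0.0014); it was chosen for this after its values were seen. Of the core subunits, Ndufv2 and Ndufs8 fell by 0.37 and 0.42. Ndufs1 went the other way, at 99.9 and 96.5 in MGS and 48.2 and 73.15 in CV, a rise of 0.72 (SE 0.20, limma adjusted p = 0.014), but after scaling its fold change of 0.09 was not called.

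Complex II was the exception in its direction as deposited. Sdha was at 322.8 and 311.2 TPM in MGS and 195.1 and 238.6 in CV, a rise of 0.55 (SE 0.11, limma adjusted p = 0.0038). After scaling its fold change was -0.08 and not called, so the direction turned with the scaling. Sdhd rose by 0.25 as deposited and stood at -0.38 after scaling, not called. Sdhb and Sdhc were not called as deposited and fell by 0.83 and 0.47 after scaling. In complex III, Uqcrb, a small subunit on the matrix side, was the one called, at 239.9 and 208.3 in MGS and 369.5 and 321.1 in CV, and it fell by 0.62. After scaling 6 of the 8 were called lower, among them Uqcrfs1 with -0.71, against 34.9% of all genes.

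In complex IV, 8 of the 11 widely expressed subunits were called lower as deposited and 10 after scaling. The shares over all genes were 14.8% and 34.9%. Cox5a, a nuclear subunit on the matrix side, was at 292.4 and 292.3 TPM in MGS and 536.1 and 430.6 in CV, for a log2 fold change of -0.71 (SE 0.12, limma adjusted p = 0.0015). Cox6c was at 647.8 and 591.4 in MGS and 1192 and 923.1 in CV, a fall of 0.76, and Ndufa4, once counted with complex I and now placed in complex IV, fell by 0.58. Cox4i1, the most abundant member, was at 1445 and 1437 in MGS and 2375 and 1572 in CV, not called as deposited with -0.42 (SE 0.21) and called at -1.06 after scaling. Cox7a2l, which links complex III to complex IV in supercomplexes, was at 258.4 and 247.3 in MGS and 387.3 and 328.6 in CV and fell by 0.50.

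In complex V, 5 of the 10 Fo and stalk subunits were called lower as deposited and all 10 after scaling. The shares over all genes were 14.8% and 34.9%. Atp5j2, a membrane subunit, was at 590.5 and 553.7 TPM in MGS and 1185 and 749.9 in CV, with a log2 fold change of -0.72 (SE 0.20). Atp5h, of the peripheral stalk, fell by 0.67. The F1 part was divided. Atp5e, the epsilon subunit, fell by 0.74, Atp5a1 rose by 0.49, and Atp5b was not called with 0.15. After scaling Atp5a1 stood at -0.14, not called, and Atp5b at -0.49, called lower. Of the 20 lower at day 5, 8 (40%) were also among the 34 lower at day 32 (23.5% of those), near the 38.2% of all 89 members that were lower at day 32. Atp5a1, Ndufs1, Sdha and Sdhd were called lower at day 5 and higher at day 32 as deposited, and Ndufc2 higher at day 5 and lower at day 32.

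The isoform genes of complex IV held the 4 largest rises at day 5 and the 3 largest at day 32, on the log2(TPM + 1) scale. The day 32 ranks of Cox8b, listed at 0 in both CV libraries, and of Ndufa4l2 rest on CV values near the floor. Ndufa4l2, a paralog of Ndufa4 known as a hypoxia-inducible gene and as a marker of brain pericytes, was at 59.3 and 67.7 TPM in MGS and 0.726 and 0.507 in CV at day 5, and at 19.8 and 22.1 in MGS and 0.583 and 0 in CV at day 32. It was under 1 TPM in all 4 CV libraries, so it passed the filter on low values through MGS, the one member to do so. On the log2(TPM + 1) scale, which understates changes of low genes, the fold change was 5.32 (SE 0.24, limma adjusted p = 3.6e-06) at day 5 and 4.12 (SE 0.24, limma adjusted p = 7.7e-06) at day 32, and 5.45 and 3.70 after scaling. With a pseudocount of 0.1 in place of 1 the values were 6.49 and 6.33, both called. Its gene lies on chromosome 10 at 127514939 to 127517156 on the plus strand, in the coordinates of the files, and overlaps Shmt2 on the other strand. Its share of the Ndufa4 pair was 7.76% and 8.65% in MGS against 0.0896% and 0.0583% in CV at day 5, and 3.17% and 3.75% against 0.0614% and 0% at day 32.

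Cox4i2, the oxygen-responsive isoform of subunit 4 that is abundant in lung, was at 11.0 and 8.83 TPM in MGS and 2.60 and 3.50 in CV at day 5, and at 14.8 and 14.3 in MGS and 4.59 and 3.76 in CV at day 32. It was higher in MGS at both days without overlap, by 1.43 and 1.59 (SE 0.19 each) on the log2 scale. Even so it made up at most 1.01% of the Cox4i pair in any library. Cox7a1, the heart and muscle isoform of subunit 7a, was at 38.9 and 38.5 in MGS and 14.97 and 17.2 in CV at day 5, a rise of 1.22 (SE 0.20, limma adjusted p = 0.002). At day 32 it was at 40.2 and 34.9 in MGS and 34.6 and 23.0 in CV, not called with 0.40 as deposited and -0.22 after scaling. Its share of the Cox7a1 and Cox7a2 pair was 11.3% and 11.1% against 3.43% and 3.88% at day 5, and 12.9% and 12.2% against 6.83% and 6.34% at day 32. Cox8b, the heart and muscle isoform of subunit 8 in rodents, was at 5.27 and 5.05 in MGS and 1.20 and 2.30 in CV at day 5, and at 1.39 and 1.02 in MGS at day 32, while both CV libraries of day 32 listed it at 0, so that no fold is given there.

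Cox6b2, known as the testis isoform of subunit 6b, had the opposite order. It was at 61.7 and 59.3 TPM in MGS and 111.2 and 97.7 in CV at day 5, and at 115.0 and 117.0 in MGS and 275.2 and 193.2 in CV at day 32. MGS was lower at both days without overlap, with log2 fold changes of -0.77 (SE 0.17) and -0.99 (SE 0.17). After scaling the day 32 fall was called at -1.62 and the day 5 value of -0.58 was not called. Its share of the Cox6b pair was 6.77% and 6.53% in MGS and 11.1% and 10.8% in CV at day 5, and 15.05% and 16.2% in MGS and 19.6% and 19.7% in CV at day 32. The share does not depend on median-of-ratios scaling, and it was lowest in MGS at day 5 and highest in CV at day 32.

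**Figure D4:**
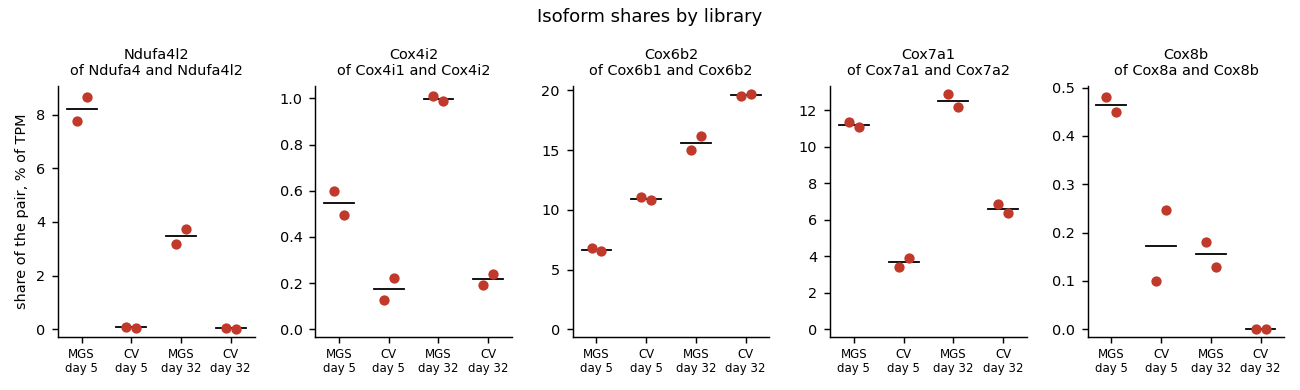
Share of the isoform gene in the TPM of its pair, in percent, for each library (points, 2 per group) with the group mean (line). Ndufa4l2, Cox4i2, Cox7a1 and Cox8b are higher in MGS at both days, and Cox6b2 is lower, from 6.53% in an MGS day 5 library to 19.7% in a CV day 32 library.

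Pericyte and mural markers differed beside Ndufa4l2, though not all in its direction. Their sum over 9 genes was 198.9 to 200.4 TPM in MGS and 54.0 to 56.3 in CV at day 5, and 132.9 to 142.7 in MGS and 25.4 to 37.5 in CV at day 32. Of the 7 that could be tested, 5 were called higher in MGS at day 5 and 7 at day 32, but Kcnj8, Rgs5 and Atp13a5 reached 1 TPM in MGS only and so passed the filter through that culture. Notch3 had the opposite order at day 5, with 12.3 and 12.4 TPM in MGS and 21.4 and 21.7 in CV, and it was called lower after scaling. Cspg4 was at 6.04 and 6.80 in MGS and 8.44 and 9.06 in CV at day 5, not called. Vtn held most of the MGS sum at day 5, at 121.4 and 121.0 TPM. Kcnj8 was at 3.17 and 2.58 TPM in MGS at day 5 and 0.0501 and 0 in CV, and it was listed at 0 in both CV libraries of day 32, as was Abcc9. Higd1b was at 0.555 and 0.479 TPM in MGS at day 5 and listed at 0 in the other 6 libraries. Of 12 hypoxia targets 6 were called higher and 2 lower in MGS at day 5, and 9 and 1 at day 32, as deposited, and after scaling 6 and 2, then 5 and 1. At day 5, 22.5% of all genes were higher and 26.4% lower as deposited, and 28.6% and 24% after scaling. At day 32, 52.8% of all genes were higher as deposited and 35.1% after scaling, so the scaled share was close to the background. Among those called higher was Pdk1, the kinase that holds back pyruvate dehydrogenase, with log2 fold changes of 1.73 and 2.22. The targets called lower are not named here. The part of the pericyte markers or of the hypoxia targets in the Ndufa4l2 difference was not tested. Of 7 muscle markers, 2 could be tested, Acta2 and Cnn1, and both were lower in MGS at both days. The muscle genes Actc1, Tnnt2 and Myl1 were under 1 TPM in all 8 libraries, beside the muscle isoforms Cox7a1 and Cox8b. Des reached 1.21 TPM in MGS day 5 replicate 2, and Myh11 reached 1.64 TPM in CV day 32 replicate 2. Both were under 1 TPM in the other libraries. The part of muscle markers in the levels of these isoforms was not tested.

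The promoters of the widely expressed and the restricted isoforms can be read side by side. The RefSeq promoter table for GRCm38.p6 (250 bases before to 50 after the start) held 75 of the 89 members, with 81 promoters. They were searched on both strands for 4 motifs of factors known for respiratory chain genes. GCGCANGCG (NRF1) stood in 22 of the 75 members and CCGGAAG (ETS factors such as GABPA) in 17. GCCATNTT (YY1) stood in 19, and AAGGTCA (estrogen-related receptors) in 8. At least 1 of the 4 stood in 63% of the members' promoters, 32.2% of the 13828 promoters of tested genes and 22.7% of all 32851 promoters. By motif, the members' promoters against those of tested genes were 28.4% and 11.9% for NRF1, 21% and 15.4% for ETS, 24.7% and 7.54% for YY1, and 9.88% and 3.28% for the receptors. Motifs may overlap each other, and a match is a description of the letters. The motifs were picked with the members' values known, and the NRF1 letters were shortened by a base after the counts for a longer form had been seen, so these shares carry no test. Sdha is shown because it carries 3 NRF1 matches, and the Cox8 and Cox6b pairs because their restricted isoforms Cox8b and Cox6b2 moved and hold none of the 4, while Cox8a and Cox6b1 hold the ETS letters. Capitals mark the matches, NRF1 in Sdha and ETS in Cox8a and Cox6b1.
Sdha (chr13:74350191-74350490, minus strand): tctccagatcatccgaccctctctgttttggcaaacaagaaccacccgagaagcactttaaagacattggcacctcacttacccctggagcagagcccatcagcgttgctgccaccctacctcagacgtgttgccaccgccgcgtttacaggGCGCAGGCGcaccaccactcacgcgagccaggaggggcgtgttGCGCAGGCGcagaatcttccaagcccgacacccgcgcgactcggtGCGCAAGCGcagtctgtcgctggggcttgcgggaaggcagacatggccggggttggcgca
Cox8a (chr19:7217567-7217866, minus strand): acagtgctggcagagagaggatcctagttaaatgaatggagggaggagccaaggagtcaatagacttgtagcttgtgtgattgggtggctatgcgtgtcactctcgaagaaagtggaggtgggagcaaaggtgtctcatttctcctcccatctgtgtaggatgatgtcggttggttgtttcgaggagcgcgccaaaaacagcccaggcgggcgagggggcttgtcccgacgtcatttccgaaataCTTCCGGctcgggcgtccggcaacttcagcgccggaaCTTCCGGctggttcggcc
Cox8b (chr7:140900397-140900696, minus strand): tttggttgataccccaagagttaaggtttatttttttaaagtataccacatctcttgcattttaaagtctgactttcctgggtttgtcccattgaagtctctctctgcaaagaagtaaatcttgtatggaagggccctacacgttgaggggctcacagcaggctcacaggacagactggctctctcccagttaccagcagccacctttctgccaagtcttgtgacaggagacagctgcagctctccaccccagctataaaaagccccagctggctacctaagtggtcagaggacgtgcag
Cox6b1 (chr7:30626065-30626364, minus strand): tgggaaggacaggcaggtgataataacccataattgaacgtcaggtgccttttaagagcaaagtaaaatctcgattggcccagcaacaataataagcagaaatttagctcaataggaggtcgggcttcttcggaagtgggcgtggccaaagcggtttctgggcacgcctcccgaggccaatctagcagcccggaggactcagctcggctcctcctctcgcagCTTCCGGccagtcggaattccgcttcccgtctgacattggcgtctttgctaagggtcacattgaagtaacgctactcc
Cox6b2 (chr7:4753045-4753344, minus strand): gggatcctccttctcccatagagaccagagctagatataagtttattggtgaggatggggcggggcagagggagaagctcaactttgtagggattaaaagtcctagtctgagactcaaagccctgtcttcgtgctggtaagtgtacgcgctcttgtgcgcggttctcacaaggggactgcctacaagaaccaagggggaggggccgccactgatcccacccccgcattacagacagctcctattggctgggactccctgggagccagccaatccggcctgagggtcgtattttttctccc
Cox7a1 and Cox7a2 both hold none of the 4, so the letters did not separate every pair.

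From day 5 to day 32 most members were not called in either culture as deposited, and calls went both ways. These 2 comparisons share the day 5 and day 32 libraries with those between the cultures. In MGS 4 were called higher and 8 lower, against 35% and 7.53% of all genes, with a median of -0.20 against 0.36. After scaling 0 were called higher and 39 lower, against 22.8% and 22.7%, and the median was -0.63 against -0.02. In limma the count of 0 was also 0 at an unadjusted p under 0.05, and it stood beside 2 with quantile normalization and 3 with the length and GC correction. As deposited, the 8 lower became 40 without either CV day 32 library, 3 or 2 without an MGS day 32 library and 2 without either MGS day 5 library, and the 4 higher became 7 without a CV day 32 library and 1 without any 1 of the MGS libraries. Ndufa4l2 fell by 1.56 (SE 0.24), a call lost with a pseudocount of 0.1 (limma adjusted p = 0.136), and Cox8b by 1.49 (SE 0.20). Cox8a fell by 0.51, Ndufc2 by 0.51 and Atp5o by 0.51. Cox6b2 rose by 0.93 (SE 0.17), Atp5s by 0.59, Sdha by 0.50 and Ndufaf7, a methyltransferase of complex I assembly, by 0.42, but after scaling none of these 4 was called. Called lower under all 4 scalings were Ndufa4l2, Cox8b, Atp5g1, Atp5g2, Ndufa5 and Ndufc2, and 0 were called higher, against 7.09% and 15.4% of all genes.

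In CV 14 members were called higher and 18 lower from day 5 to day 32, against 16% and 37.7% of all genes, with a median of 0.05 against -0.31. After scaling 24 were called higher and 6 lower, against 27.3% and 26.8%, with a median of 0.44 against 0.01. As deposited, the 14 became 34 without CV day 32 replicate 2, 9 without its replicate 1, 7 and 3 without CV day 5 replicate 1 and 2, and 8 without any 1 MGS library, and the 18 became 30 without CV day 32 replicate 1. The rises were mostly in complex I accessory subunits, 8 of the 29, and the falls took in catalytic subunits. Cox6b2 rose by 1.14 (SE 0.17), Atp5e by 0.79 (SE 0.23), Cox7a1 by 0.77 (SE 0.20), Ndufa3 by 0.71 (SE 0.20) and Ndufa6 by 0.63 (SE 0.18). Atp5b fell by 1.07 (SE 0.10), Ndufs1 by 1.04 (SE 0.20), Atp5a1 by 0.90 (SE 0.11) and Uqcrc2 by 0.85 (SE 0.19), and these 4 falls were called under all 4 scalings. In all, 4 were called higher and 6 lower under all 4, against 13.7% and 21.7% of all genes. Cox8b, at 1.20 and 2.30 TPM at day 5, was listed at 0 in both libraries of day 32.

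The culture by day interaction, the log2 fold change at day 32 minus that at day 5, tests whether the culture difference changed with time. It was called positive in 8 members and negative in 14 as deposited, against 49.7% and 12.3% of all genes, with a median of -0.24 against 0.65. After scaling the counts were 1 and 53, against 28.7% and 31.6%, with a median of -1.06 against -0.07. As deposited, the 14 became 49 without CV day 32 replicate 2, 9 and 4 without CV day 5 replicate 1 and 2, and 4 or 3 without any 1 MGS library, and the 8 became 15 without CV day 32 replicate 1. The positive values were in Ndufs1 (1.45, SE 0.28), Sdha (1.09, SE 0.16), Uqcrc2 (0.92, SE 0.27), Atp5a1 (0.84, SE 0.15), Atp5b (0.81, SE 0.14), Uqcrfs1, Ndufa10 and Sdhd. After scaling Ndufs1 alone was called positive, at 0.63, and the value for Atp5b was -0.02. The largest negative values were in Ndufa4l2 (-1.20, SE 0.33), Ndufa3 (-1.03, SE 0.28), Atp5e (-0.99, SE 0.32), Ndufa7 (-0.89, SE 0.25) and Cox7a1 (-0.82, SE 0.28). The Ndufa4l2 value depended on the pseudocount, since with 0.1 in place of 1 it was -0.16 and not called (limma adjusted p = 0.909). Each of these 5 calls was also lost on leaving out 1 of several libraries, 3 of 8 for Ndufa4l2 and for Ndufa3, 5 for Atp5e and for Ndufa7 and 6 for Cox7a1. Called negative under all 4 scalings were Ndufa4l2, Ndufa3, Ndufa5, Ndufc2, Ndufv3 and Cox7a2l, 6 in all, and 1 was positive, against 11% and 19.2% of all genes.

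The members called in opposite directions also differed in transcript length. In the interaction as deposited, the log2 value and the log length correlated with Pearson's r of 0.623 across the 89 members, which share the same 8 libraries and are not independent. For MGS against CV the r was -0.247 at day 5 and 0.219 at day 32. Across all genes tested with a known length the r was 0.413 in the interaction, -0.161 at day 5 and 0.316 at day 32. Sdha, Ndufs1 and Atp5a1 have transcripts of 2900, 2661 and 2674 bases, against a median of 934. By length, the interaction had a median of -0.58 in the 17 members up to 600 bases and of 0.29 in the 12 over 2000 bases, 2 thinly filled classes, and of -0.45 and 0.06 in the 31 and 29 between. Over all genes the same 4 classes had medians of -0.05, -0.38, 0.02 and 0.93. The difference between the replicates of CV at day 32 also followed length, with r of -0.596 across members and -0.480 across all genes. In CV at day 5 the same r were -0.207 and -0.331. With the length and GC correction the interaction was called positive in 20 members and negative in 8, against 32.2% and 26% of all genes. The part of length in these differences was not tested apart from that correction.

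**Figure D5:**
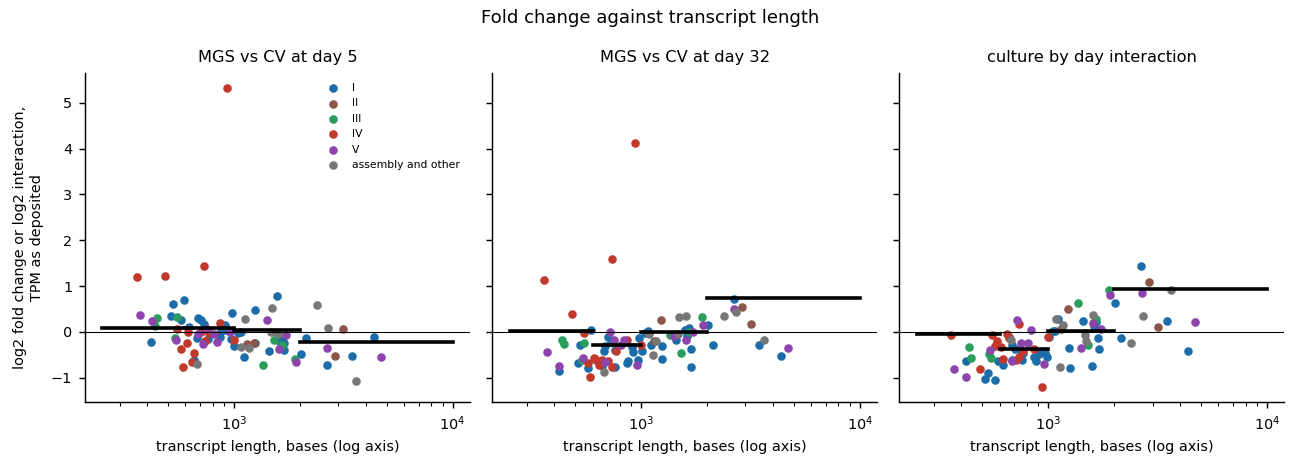
Log2 fold change of MGS over CV at day 5 and at day 32, and the culture by day interaction, for each of the 89 members as deposited (points, coloured by complex) against transcript length in bases on a log axis; black lines are medians over all genes tested in 4 length classes. In the interaction the 12 members over 2000 bases have a median of 0.29 and the 17 up to 600 bases a median of -0.58.

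Other genes of mitochondrial respiration were taken as lists, with the same limma tests, and each count of 0 below was also 0 at an unadjusted p under 0.05 except for 1 assembly factor at day 5. The backgrounds over all genes, higher and lower, were 22.5% and 26.4% at day 5 and 52.8% and 14.8% at day 32 as deposited, and 28.6% and 24%, then 35.1% and 34.9%, after scaling. At day 32 as deposited the shares called higher in the citric acid cycle and biogenesis lists were near the background. Of 17 genes of pyruvate dehydrogenase and the citric acid cycle, 13 were lower and 0 higher in MGS at day 5, and 1 lower and 10 higher at day 32, as deposited. After scaling 10 were lower and 0 higher, then 7 lower and 2 higher. Cs, citrate synthase, averaged 188.0 TPM in MGS and 369.1 in CV at day 5 (log2 fold change -0.97), and 219.6 and 140.5 at day 32 (0.66, and 0.03 after scaling, not called). Of 19 genes of mitochondrial import and the porins, 0 were higher and 11 lower at day 5 and 0 and 8 at day 32, and after scaling 0 and 7, then 0 and 18. Vdac1, the main porin of the outer membrane, fell by 0.71 at day 5. Among 11 other respiratory chain genes, 1 was higher and 4 lower at day 5, and 2 and 3 at day 32, and after scaling 1 and 3, then 0 and 7; Cycs, cytochrome c, fell by 1.03 and 0.55 at the 2 days. Of 29 assembly factors outside the prefixes, 0 were higher and 8 lower at day 5, and 9 and 6 at day 32, and after scaling 2 and 6, then 2 and 17. Of 17 regulators of mitochondrial biogenesis 2 were higher and 5 lower at day 5, and 9 and 0 at day 32, and after scaling 2 and 4, then 3 and 5. Ppargc1a, the coactivator of mitochondrial biogenesis, averaged 5.62 TPM in MGS and 18.04 in CV at day 5 (log2 fold change -1.49, SE 0.26), and 13.6 and 2.58 at day 32 (2.06, SE 0.26). Nrf1, whose motif was counted above, was not called at day 5 with -0.31 and rose by 0.53 at day 32, where after scaling it stood at -0.08 and was not called.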

How the data were processed

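RNA was sequenced from 8 libraries of mouse astrocytes. TRIzol was used for total RNA and a directional NEB Ultra II kit for the libraries, per the labels' protocols. The submitters' processing notes name HISAT2 2.1.0, StringTie 1.3.4d and bcl2fastq, and as builds mm10 and hg38, with no roles. The annotation and the use of strand in counting are not given in the sources used here. The authors deposited a TPM table of the series and, per the file headers, TPM, FPKM and coverage per gene in a file per library. Its values for the members equalled those of the library files (largest difference 0). FPKM and coverage, as deposited, served only to recover the aligned bases, which had 1 constant ratio in 76.89% to 78.16% of rows. Depth per gene and counting error are otherwise unknown.

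Rows of 1 gene ID were summed, giving 23420 gene IDs. The 14904 with at least 1 TPM in at least 2 libraries were tested on the log2(TPM + 1) scale with limma 3.58.1 (R 4.3.3), in a model of 4 group means over all 8 libraries (4 residual degrees of freedom, 3.3 prior degrees of freedom, two-sided moderated tests). Benjamini-Hochberg adjustment ran over all 14904 genes. With 2 against 2 libraries an exact permutation test cannot go below 0.333, so none was made. Log2 fold changes are as deposited unless scaling is named. Lengths came from the GENCODE annotation of GRCm38. Where 1 library of a group was left out, the lone library was assumed to vary like the other groups.

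Alternatives were median-of-ratios scaling, quantile normalization, a correction for length and GC content, a pseudocount of 0.1, no filter on low values, a replicate block, and leaving out each library. The text names up to 5 called members each way per contrast, core and isoform subunits, assembly factors and up to 3 called genes of each list each way. Ndufa5, Ndufb4, Ndufc2, Uqcrb and other members beyond that rule were named after their values were seen. The members and lists were chosen with earlier results of these data known. The values of 1 member are not reported here by name.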

Additional observations from a re-analysis of the deposited data

Results flagged for a closer look

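For 10 members the difference between the cultures changed from day 5 to day 32 by a test of the interaction in limma, on the log2 scale as deposited. It was more positive at day 32 for Ndufs1 (1.45), Sdha (1.09), Uqcrc2 (0.92), Atp5a1 (0.84) and Atp5b (0.81). It was more negative at day 32 for Ndufa4l2 (-1.2), Ndufa3 (-1.03), Atp5e (-0.99), Ndufa7 (-0.89) and Cox7a1 (-0.82). The Ndufa4l2 value rests on CV levels under 1 TPM and was -0.157, not called, with a pseudocount of 0.1 (limma adjusted p = 0.909). Leaving out 1 library in turn, Ndufs1, Sdha, Atp5a1 and Atp5b kept their calls in all 8 fits, while the other 6 lost theirs in 3 to 6 of the 8. After median-of-ratios scaling Ndufs1 was the one of the 5 positive values still called. These 10 are the largest called values each way, and every one rests on the 2 libraries of CV at day 32. There replicate 1 was above replicate 2 in 75 of the 89 members. The 5 positive members had the opposite order, such as Ndufs1 at 48.2 TPM in replicate 1 and 73.1 in replicate 2. No group had enough libraries for a test of a single outlying library.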

How the results depend on the processing

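Counts are members called higher and lower in MGS or at day 32, with the deposited value first. Median-of-ratios scaling moved 20 lower at day 5 to 7, 8 and 34 at day 32 to 3 and 69, 4 and 8 within MGS to 0 and 39, 14 and 18 within CV to 24 and 6, and 8 and 14 in the interaction to 1 and 53. Quantile normalization moved the count within MGS to 2 and 16, and the negative interaction to 24. The length and GC correction gave 44 lower at day 5, 48 lower within MGS, 4 and 44 within CV, and 20 and 8 in the interaction. With the replicate block 13 were lower within MGS and 23 negative in the interaction, and with the block and the length and GC correction the counts were 47 lower at day 5, 55 lower within MGS, 5 and 46 within CV, and 21 positive in the interaction. The labels do not say whether the replicate numbers pair the libraries. The correlation of same-numbered deviations was 0.444 between CV at day 5 and CV at day 32. In the other pairs of groups it ran from -0.131 to 0.175. A pseudocount of 0.1 and no filter left all 10 counts within 1.5 times, but with that pseudocount Ndufa4l2 lost its call in the interaction (-0.157, limma adjusted p = 0.909) and within MGS (-1.595, limma adjusted p = 0.136).

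Leaving out 1 library gave 5 to 17 higher and 5 to 34 lower at day 5, 5 to 13 and 15 to 54 at day 32, 1 to 7 and 2 to 40 within MGS, 3 to 34 and 13 to 30 within CV, and 6 to 15 and 3 to 49 in the interaction. An alternative chosen after seeing the data joined median-of-ratios scaling with leaving out CV day 32 replicate 1 or 2. It gave 57 and 81 lower at day 32, 3 higher in both, 19 and 68 higher and 12 and 6 lower within CV, and 58 and 81 negative and 1 positive in the interaction.

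The sign of the log2 value differed between the 4 scalings in 39 of the 89 members at day 5, 27 at day 32, 18 within MGS, 52 within CV and 47 in the interaction. Among the called members named by size, the following turned. Sdha at day 32 was at -0.08 with median-of-ratios scaling, -0.006 with the length and GC correction with and without the replicate block, and -0.025 and -0.134 with that scaling and without CV day 32 replicate 1 and 2. Ndufs1 at day 32 was at -0.01 with that scaling without replicate 1. Atp5s within MGS was at -0.021 with quantile normalization. In the interaction Atp5b was at -0.019 with that scaling and -0.134 without replicate 2 as well, where Atp5a1 was at -0.067. The cause of these changes was not tested. TPM gives no counting error, so low members such as Cox8b are limited by depth that is not known.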
